A study of Mus musculus with 6 samples.

Results

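Messenger RNA of 10 T cell receptor and cytotoxic lymphocyte genes was followed in whole liver. They were *Cd3d*, *Cd3e*, *Cd3g*, *Cd4*, *Cd8a*, *Cd8b1*, *Lck*, *Zap70*, *Nkg7* and *Gzma*, picked by gene symbol from a table of 25403 genes. All 10 were listed, and 5 of them (*Cd3e*, *Cd4*, *Cd8a*, *Lck* and *Zap70*) had enough counts to be among the 14496 genes tested between groups. The samples were poly(A) RNA from 6 mouse livers. Of these, 3 were wild-type C57BL6/J (WT) and 3 carried a whole-body knockout of *Themis* (*Themis*-KO), a gene whose protein acts in T cell receptor signaling. Mice of both groups were started at 10 to 12 weeks of age on a diet that brings on metabolic dysfunction-associated steatohepatitis (MASH), which was rich in fat (40 kcal%), fructose (20 kcal%) and cholesterol (2%), and ate it for 3 months. There was no chow-fed group, so every value comes from livers under the diet. The knockout reaches every cell of the body, T cells and hepatocytes included, and the part of the gene that the allele lacks was not given in the sources used here.

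The T cell receptor is a pair of antigen-binding chains carried to the surface by the CD3 chains, which hold the signaling motifs. When the receptor meets antigen, the kinase LCK, bound to the coreceptors CD4 or CD8, phosphorylates those motifs and the kinase ZAP70 docks on them. CD4 marks helper and regulatory T cells and CD8 marks cytotoxic T cells, which, like natural killer (NK) cells, kill through granules that contain granzymes. In fatty liver disease, T cells are a minor part of a tissue made mostly of hepatocytes, so their transcripts are scarce in RNA of the whole organ.

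Each library held between 20679642 and 25649767 estimated counts. Levels are given as CPM, counts brought to a common library size, after TMM scaling, which corrects library totals for differences in composition, and differences as log2 fold changes of *Themis*-KO minus WT. *Themis* RNA did not separate the labels. Its counts were 176, 534 and 304 in the WT livers and 203, 180 and 211 in the livers labelled *Themis*-KO, and its log2 fold change was −0.79 (edgeR adjusted p = 0.199), from −1.10 without WT liver 1 to −0.20 without WT liver 2. WT livers 1 and 2 also stood apart from the other 4 in their mitochondrial transcripts. *Gm28438* took 96.64% and 96.82% of the summed counts of *Gm28438* and *mt-Nd3* in these 2 livers, against 2.202% to 3.261% in the others. How much of any difference between the labels goes with this split was not tested beyond a fit with the split as a covariate. No liver labelled *Themis*-KO was on the side of WT livers 1 and 2, so that fit compares the labels through WT liver 3 alone.

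The members lie on 6 chromosomes, and 5 of the 10 sit beside another member (GRCm38 coordinates, GENCODE annotation). *Cd3g* (chr9:44969572-44980431, minus strand), *Cd3d* (chr9:44981786-44987339, plus strand) and *Cd3e* (chr9:44998740-45009627, minus strand) share a stretch of 40056 bp, and the starts of *Cd3g* and *Cd3d* face away from each other at a distance of 1355 bp. *Cd8b1* (chr6:71322788-71337494, plus strand) and *Cd8a* (chr6:71373427-71379173, plus strand) start 50639 bp apart. *Cd4* is on the same chromosome (chr6:124864692-124888221, minus strand). The others are *Zap70* (chr1:36761798-36782818, plus strand), *Lck* (chr4:129548344-129573641, minus strand), *Nkg7* (chr7:43437073-43438249, plus strand) and *Gzma* (chr13:113093825-113100981, minus strand). All are protein-coding genes, and counts cover their exons, untranslated regions included. *Zap70* overlaps the pseudogene *Gm18828* and *Cd3e* the antisense gene *Gm48719*, both on the opposite strand. On the same strand, *Cd3e* overlaps *Gm48720* and *Lck* overlaps *Mir8119*. No source used here says that the counting used strand, so reads of the opposite-strand pairs cannot be told apart. Strand would not separate the pairs on the same strand.

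RefSeq promoter windows (GRCm38.p6) were available for 8 of the 10 members, in 11 entries. The 250 bases before the start were searched on both strands for GGAAGT, the core bound by ETS factors, TGTGGT, the core bound by RUNX factors, and TGACGTCA, the cyclic AMP response element (CRE). An ETS core was found in 4 members, a RUNX core in 4 and a CRE in 1. Of 32851 promoter windows of the same length, 19.7% held the ETS core, 14% the RUNX core and 1.55% the CRE. These shares are per window, while a member was counted if any of its entries held the motif. The counts and the shares are therefore not on the same scale. A match describes the letters only, and whether a factor binds there was not measured. The windows of 3 members are shown, because *Zap70* was the member with the highest level in the WT livers, and *Lck* and *Cd8a* were the pair whose levels followed each other most closely over the 6 livers. Matches are in capitals, and the windows, 1 of the 3 entries of *Zap70*, 1 of the 2 of *Lck* and the only one of *Cd8a*, are chr1:36761548-36761797 (plus strand), chr4:129573642-129573891 (minus strand) and chr6:71373177-71373426 (plus strand), each written 5′ to 3′ along the gene's own strand.
Zap70: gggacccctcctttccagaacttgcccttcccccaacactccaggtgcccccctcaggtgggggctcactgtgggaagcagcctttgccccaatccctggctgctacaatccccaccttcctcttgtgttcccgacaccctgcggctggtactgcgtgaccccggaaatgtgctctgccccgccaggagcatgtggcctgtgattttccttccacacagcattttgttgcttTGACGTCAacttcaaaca
Lck: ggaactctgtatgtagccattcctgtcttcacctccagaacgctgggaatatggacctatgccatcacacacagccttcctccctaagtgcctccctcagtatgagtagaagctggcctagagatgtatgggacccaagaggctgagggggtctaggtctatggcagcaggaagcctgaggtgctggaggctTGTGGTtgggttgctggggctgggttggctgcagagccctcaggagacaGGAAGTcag
Cd8a: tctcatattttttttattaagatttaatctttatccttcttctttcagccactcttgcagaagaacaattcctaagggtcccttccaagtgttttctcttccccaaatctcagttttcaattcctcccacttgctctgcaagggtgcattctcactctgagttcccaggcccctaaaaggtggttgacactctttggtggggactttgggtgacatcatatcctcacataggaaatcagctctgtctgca
The *Zap70* window held the CRE, the *Lck* window held a RUNX core and an ETS core, and the *Cd8a* window held none of the 3 motifs. Another *Zap70* entry, chr1:36764265-36764514, held an ETS core and a RUNX core but no CRE.

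*Cd4* was the member that differed between the labels. It was lower in every liver labelled *Themis*-KO than in every WT liver, at 0.362 times the WT mean. *Zap70* was also lower without overlap but did not pass the test after adjustment. No member was called higher by edgeR or DESeq2. At an unadjusted p under 0.05 there was none higher in edgeR after the filter on low counts. In DESeq2, and in edgeR without that filter, there was 1, *Cd8a*. Of all 25403 genes listed, 10.9% were lower without overlap, as were these 2 of the 10 members. In RNA of a whole organ, fewer cells of a type and less RNA per cell cannot be told apart.

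*Cd4* encodes the coreceptor of helper T cells that binds MHC class II, and some macrophages and dendritic cells can carry it too. Its counts were 44, 22 and 46 in the WT livers and 14, 12 and 14 in those labelled *Themis*-KO. WT liver 2 held the lowest WT count, still above all livers of the other label. The levels were 1.63 ± 0.507 CPM in WT and 0.591 ± 0.0726 CPM in *Themis*-KO (SD, n = 3 each). The log2 fold change was −1.46 with a standard error of 0.32 and a 95% interval of −2.21 to −0.71, and it passed edgeR's quasi-likelihood test after Benjamini-Hochberg correction over all genes (adjusted p = 0.0386). DESeq2, which called 7.12% of genes lower, gave an adjusted p of 0.0126. Among all genes tested, 4.14% were called lower at an adjusted p under 0.05, and among those with a mean of 10 to 60 counts, as *Cd4* has, 1.58% were. The direction held in every fit, but the call did not. Leaving out WT liver 1, 2 or 3 or *Themis*-KO liver 1 or 2 gave edgeR adjusted p values of 0.141, 0.0611, 0.082, 0.13 and 0.137, and leaving out *Themis*-KO liver 3 gave 0.0218. In the first 5 of these fits 0.0814% to 2.49% of all genes were called lower, and in the last 13.8%. With the mitochondrial split as a covariate the log2 fold change was −1.61 (edgeR adjusted p = 0.39), and 0.0207% of all genes were called lower.

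*Cd8a* and *Cd8b1* encode the alpha and beta chains of the coreceptor that binds MHC class I. The beta chain is found on conventional cytotoxic T cells, while the alpha chain is also made by some dendritic cells and intestinal lymphocytes. The *Cd8a* counts were 10, 13 and 11 in WT and 58, 10 and 22 in *Themis*-KO. The 3 WT livers were close together, whereas the livers labelled *Themis*-KO reached from the lowest WT count to far above all others. The levels were 0.505 ± 0.103 and 1.31 ± 1.04 CPM (SD, n = 3 each). The log2 fold change was 1.38, with a 95% interval of −0.02 to 2.78 (edgeR adjusted p = 0.167). Fitted without the filter on low counts it was 1.36, with a 95% interval of 0.31 to 2.42 (edgeR adjusted p = 0.111). Without *Themis*-KO liver 1 the log2 fold change of *Cd8a* was 0.53. *Cd8b1* was counted 1, 9 and 8 times in WT and 10, 7 and 5 times in *Themis*-KO. Its groups overlapped. The highest count, 10, was also in *Themis*-KO liver 1, though WT liver 2 had 9. Whether *Cd8b1* followed *Cd8a* in that *Themis*-KO liver was not tested. The filter on low counts left *Cd8b1* out, and the fit without that filter gave a log2 fold change of 0.27 (95% interval −1.11 to 1.64, edgeR adjusted p = 0.839).

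**Figure D1:**
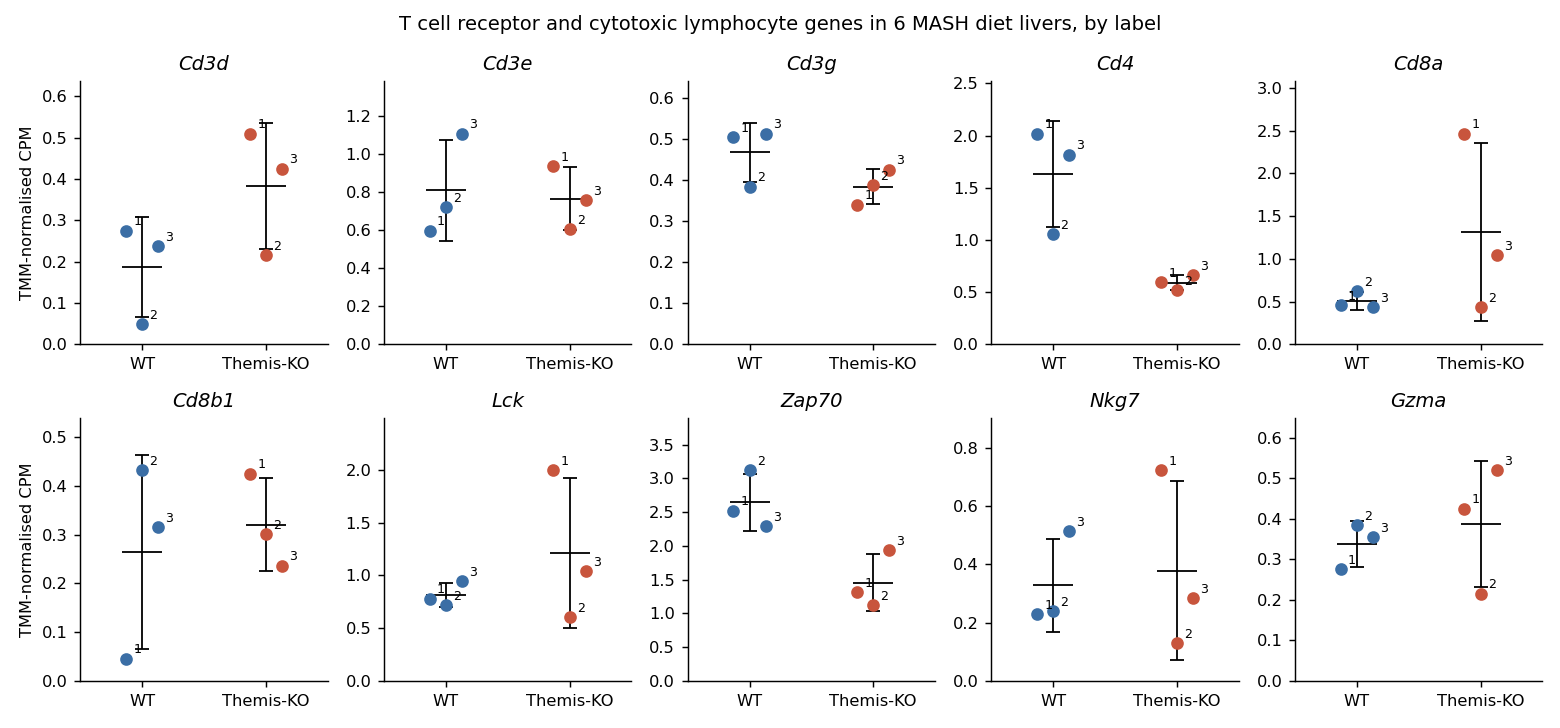
TMM-scaled CPM of the 10 members in each liver (points numbered by replicate, blue for WT and red for livers labelled *Themis*-KO), with the mean and SD of the 3 livers of each group as the horizontal line and bar. Each panel has its own axis from 0; *Cd4* and *Zap70* are the panels in which the groups do not overlap, and *Themis*-KO liver 1 stands above the other 5 livers for *Cd8a*, *Lck* and *Nkg7*.

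The 3 CD3 chains, which every conventional T cell carries, did not set the labels apart. *Cd3e*, the epsilon chain, was counted 13, 15 and 28 times in WT and 22, 14 and 16 times in *Themis*-KO. *Cd3g*, the gamma chain, had 11, 8 and 13 counts in WT and 8, 9 and 9 in *Themis*-KO. *Cd3d*, the delta chain, had 6, 1 and 6 counts in WT and 12, 5 and 9 in *Themis*-KO. All 3 overlapped between the labels. Of them *Cd3e* was tested, with a log2 fold change of −0.09, a 95% interval of −0.88 to 0.70 and an edgeR adjusted p of 0.876. In the fit without the filter, the log2 fold change of *Cd3d* was 0.98 (95% interval −0.38 to 2.34) and that of *Cd3g* was −0.30 (95% interval −1.27 to 0.67). Summed over the 3 chains, the counts were 30, 24 and 47 in WT and 42, 28 and 34 in *Themis*-KO. These sums came to 1.376, 1.152 and 1.855 CPM in WT and 1.785, 1.204 and 1.606 CPM in *Themis*-KO, and the labels overlapped.

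The receptor-proximal kinases did not move together. *Zap70*, the kinase that binds phosphorylated CD3 chains, was counted 55, 65 and 58 times in WT and 31, 26 and 41 times in *Themis*-KO. Every liver labelled *Themis*-KO lay below every WT liver, as was the case for 16.9% of the genes tested. The levels were 2.64 ± 0.428 and 1.46 ± 0.427 CPM (SD, n = 3 each), a log2 fold change of −0.86 with a 95% interval of −1.47 to −0.25. The unadjusted p in edgeR was 0.0118 and the adjusted p 0.0764, so the difference did not pass after adjustment, and DESeq2 gave an adjusted p of 0.0624. Leaving out *Themis*-KO liver 3 gave a log2 fold change of −1.13 for *Zap70* (edgeR adjusted p = 0.0159), in a fit that called 13.8% of all genes lower. Leaving out any other liver gave edgeR adjusted p values from 0.103 to 0.227. *Lck*, the kinase that starts the cascade, was counted 17, 15 and 24 times in WT and 47, 14 and 22 times in *Themis*-KO. The WT livers again lay close together, and *Themis*-KO liver 1 was the highest of all 6. Its log2 fold change was 0.57 (95% interval −0.45 to 1.58, edgeR adjusted p = 0.407), and −0.0086 without *Themis*-KO liver 1.

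*Nkg7* and *Gzma* belong to the granules of NK cells and cytotoxic T cells, NKG7 as a granule membrane protein and granzyme A as a protease released into the target cell. *Nkg7* was counted 5, 5 and 13 times in WT and 17, 3 and 6 times in *Themis*-KO. *Gzma* was counted 6, 8 and 9 times in WT and 10, 5 and 11 times in *Themis*-KO. For both genes the livers labelled *Themis*-KO held the highest and the lowest count, and the WT livers lay between. Neither passed the filter on low counts. The fit without it gave a log2 fold change of 0.17 for *Nkg7* (95% interval −1.14 to 1.49, edgeR adjusted p = 0.896) and of 0.17 for *Gzma* (95% interval −0.94 to 1.28, edgeR adjusted p = 0.877). In a single WT liver, counting error alone has a coefficient of variation of 36.1% for either gene. Changes of a size within those intervals cannot be told apart with 3 livers in each group at this depth.

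**Figure D2:**
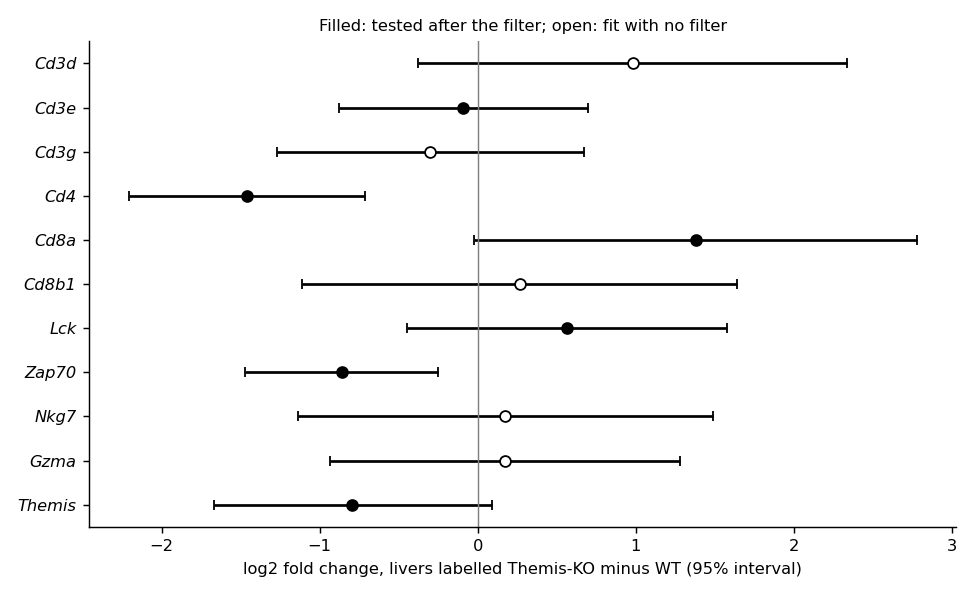
Log2 fold change of each member and of *Themis* between livers labelled *Themis*-KO and WT, with 95% intervals from edgeR (filled points, genes that passed the filter; open points, the fit with no filter). The intervals of *Cd4* (−2.21 to −0.71) and *Zap70* (−1.47 to −0.25) lie below 0, and those of the other members and of *Themis* cross it.

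For *Cd8a* and *Lck* the scatter within groups was wider than counting allows. The chi-square per degree of freedom of the counts within groups, which is about 1 when livers differ by counting error alone, was 9.84 for *Cd8a*, 5.07 for *Lck* and 3.80 for *Nkg7*. It was 0.174 to 2.16 for the other 7 members. The high values of all 3 genes came from the same liver. There, *Cd8a* made up 25.3% of the summed counts of the 10 members, against 5.09% to 14.2% in the other 5 livers.

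Per kilobase of each gene's principal transcript, *Zap70* had the highest level in WT, at 1.18 ± 0.191 CPM per kb (SD, n = 3). It was the only WT gene whose livers did not overlap those of the next in order. After it came *Cd3e* (0.552 CPM per kb), *Cd4* (0.524), *Cd3g* (0.456), *Gzma* (0.385), *Lck* (0.373), *Nkg7* (0.371), *Cd8b1* (0.178), *Cd8a* (0.162) and *Cd3d* (0.115), each overlapping its neighbor. In the livers labelled *Themis*-KO, *Zap70* was again first on this per-length scale (0.649 ± 0.19 CPM per kb) but overlapped *Lck* (0.555). *Cd4*, the third in WT, was last there, at 0.19 ± 0.0235 CPM per kb. It overlapped *Cd8b1* (0.216), the gene above it.

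Ratios between members within a liver do not depend on how libraries are scaled. *Cd4* counts were 4.24, 1.67 and 4.04 times those of *Cd8a* in the WT livers and 0.248, 1.19 and 0.644 times in those labelled *Themis*-KO (0.5 was added to each count). The helper coreceptor outnumbered the cytotoxic one in all WT livers, and in 1 of the 3 livers of the other label. On the log2 scale the mean ratio was 1.61 ± 0.759 in WT and −0.80 ± 1.14 in *Themis*-KO (SD, n = 3 each), a difference of −2.41. The labels did not overlap (exact two-sided permutation p = 0.1, the smallest that 3 livers against 3 can give). Leaving out 1 liver at a time gave differences from −2.94 to −1.80. As a share of the 2 coreceptors' counts, *Cd4* took 81.5% (95% Wilson interval 69.2% to 89.6%), 62.9% (46.3% to 76.8%) and 80.7% (68.7% to 88.9%) in WT. In *Themis*-KO it took 19.4% (12.0% to 30.0%), 54.5% (34.7% to 73.1%) and 38.9% (24.8% to 55.1%). These intervals cover counting error only, and that of *Themis*-KO liver 2 overlaps those of all 3 WT livers, while that of *Themis*-KO liver 3 overlaps that of WT liver 2 alone.

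*Cd4* and *Cd8a* were also set against *Cd3e*, a gene of all conventional T cells. *Cd4* was 3.30, 1.45 and 1.63 times *Cd3e* in WT and 0.644, 0.862 and 0.879 times in *Themis*-KO. *Cd8a* was 0.778, 0.871 and 0.404 times *Cd3e* in WT and 2.60, 0.724 and 1.36 times in *Themis*-KO. The first ratio did not overlap between labels and the second did. *Zap70* was 3.17, 4.23 and 2.39 times *Lck* in WT and 0.663, 1.83 and 1.84 times in *Themis*-KO, also without overlap. These 3 ratios were chosen after the values were seen and have no test. Of the ratios that were planned, *Cd8b1* to *Cd8a* differed by −0.41 on the log2 scale (exact two-sided permutation p = 0.9, from −1.19 to −0.0081 with 1 liver left out at a time) and *Nkg7* to *Cd3e* by 0.04 (exact two-sided permutation p = 1). Both overlapped between labels.

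**Figure D3:**
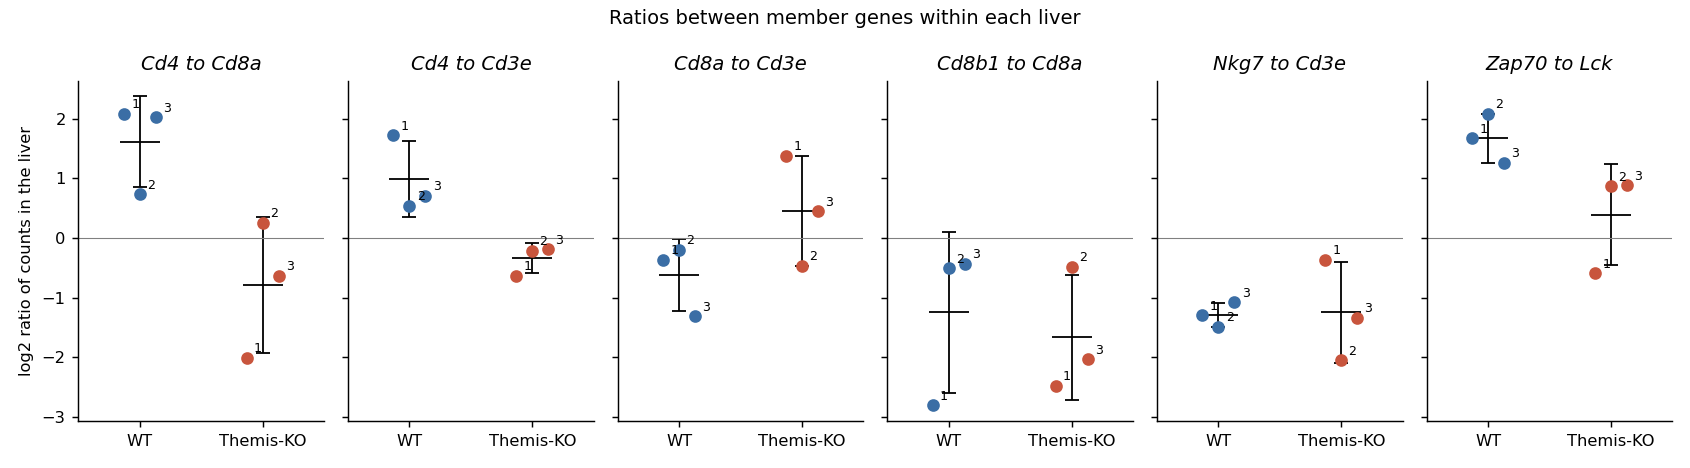
Log2 ratios between pairs of members in each liver (points numbered by replicate, blue for WT and red for *Themis*-KO), with the mean and SD of 3 livers and a grey line at equal counts. *Cd4* to *Cd8a*, *Cd4* to *Cd3e* and *Zap70* to *Lck* are lower in every liver labelled *Themis*-KO, while the other 3 ratios overlap.

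Over the 6 livers, the members did not rise and fall as 1 block. Of their 45 pairs, 28 had a positive Pearson correlation of log2 CPM, with a median of 0.286 and a range from −0.70 (*Cd3g* and *Cd8b1*) to 0.91 (*Cd8a* and *Lck*). *Nkg7* followed *Lck* (0.892) and *Cd3e* followed *Nkg7* (0.867). *Cd4* and *Cd3g* were each other's closest member (0.85), and *Zap70* was closest to *Cd4* (0.751). Each value describes 6 livers that share their library depth and include the difference between labels, and none was tested. Outside the members, the 5 genes whose pattern was most like the mean of the members' log2 CPM were *Ms4a4b* (r = 0.9782), *Kcnq1* (0.9621), *Col4a4* (0.9605), *Maml2* (0.9589) and *Rhbdl3* (0.9566). *Ms4a4b*, a membrane protein gene of T cells, was counted 18, 20 and 29 times in WT and 35, 12 and 20 times in *Themis*-KO. Like the summed members, it was highest in *Themis*-KO liver 1 and lowest in *Themis*-KO liver 2.

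Summed over all 10 members, the level did not separate the labels, while that of 7 pan-leukocyte genes did. The members' counts added up to 168, 161 and 216 in WT and 229, 105 and 155 in *Themis*-KO. In CPM the sums were 7.706, 7.726 and 8.524 in WT and 9.731, 4.516 and 7.320 in *Themis*-KO, a ratio of means of 0.9. The direction was not stable, since the difference of mean log2 sums was −0.22 over all livers and 0.08 without *Themis*-KO liver 2, and with each gene weighing the same it was 0.03. Without *Cd4* and *Zap70*, a choice made after their values were seen, the other 8 members summed to 3.165, 3.551 and 4.42 CPM in WT and 7.819, 2.882 and 4.723 CPM in *Themis*-KO, again with overlap. Of the members' counts *Cd4* took 13.7% to 26.2% in WT and 6.11% to 11.4% in *Themis*-KO. The 7 pan-leukocyte genes (*Ptprc*, which encodes CD45, and 6 others) summed to 54.0 to 84.8 CPM in WT and 99.88 to 128.9 CPM in *Themis*-KO, a ratio of 1.75 with no overlap. For every 100 CPM of these genes, the members had 14.3, 12.5 and 10.1 CPM in WT and 7.96, 3.50 and 7.33 CPM in *Themis*-KO. For every 100 *Ptprc* counts there were 9.80, 8.28 and 8.02 counts of the CD3 chains in WT and 6.64, 4.12 and 6.77 in *Themis*-KO. Both ratios were lower in every liver labelled *Themis*-KO. In the first, the denominator was higher in every liver of that label, while the summed members overlapped. In the second, the CPM sums of the CD3 chains overlapped. Both ratios were added after the data were seen and have no test.

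**Figure D4:**
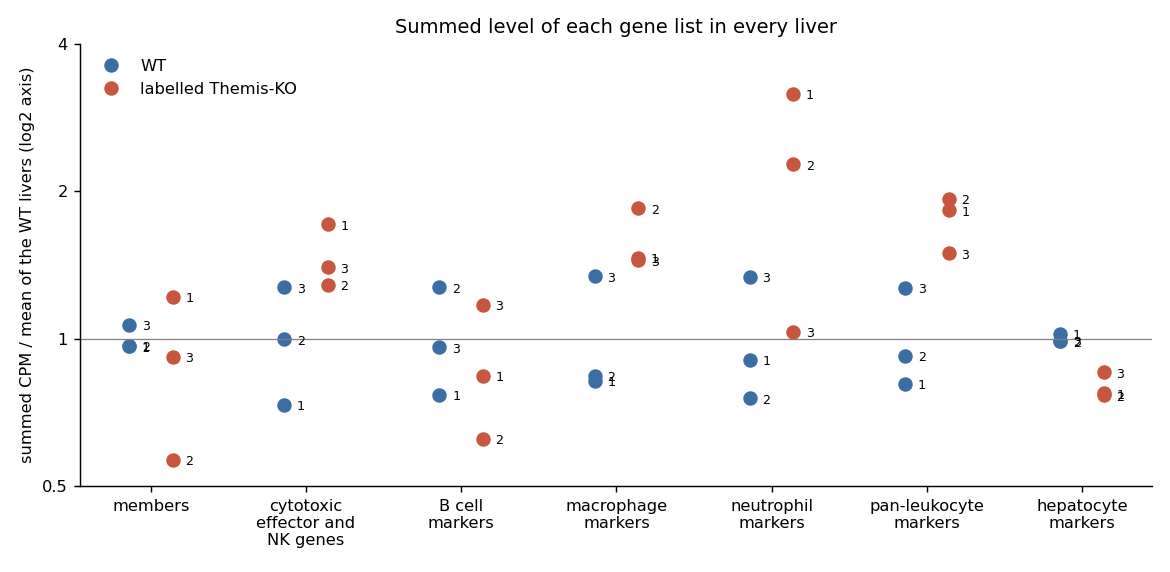
Summed CPM of each gene list in each liver, divided by the mean of the 3 WT livers (log2 axis, blue for WT, red for livers labelled *Themis*-KO, numbered by replicate). The members lie on both sides of 1 in *Themis*-KO, whereas the pan-leukocyte and macrophage lists are above every WT liver and the hepatocyte list is below.

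Markers of some other cell types differed between the labels beside these results. All 11 macrophage markers were tested and all had a positive log2 fold change, 3 of them called higher, beside 4.97% of all genes tested, and their summed level was 466.5 to 762.6 CPM in WT and 821.7 to 1049 CPM in *Themis*-KO. The marker with the largest change was *Gpnmb*, a gene of lipid-associated macrophages (log2 fold change 1.97, edgeR adjusted p = 0.0194), and that with the smallest was *Clec4f* of Kupffer cells (0.14). The 6 dendritic cell markers summed to 13.93 to 15.88 CPM and 16.45 to 18.61 CPM, from *Zbtb46* (−0.12) to *Cd209a* (1.21), and the neutrophil markers to 5.807 to 10.3 CPM and 7.935 to 24.31 CPM. The 4 neutrophil markers tested had a median log2 fold change of 1.13, from *Csf3r* (0.98) to *S100a9* (1.21). In neither list was a gene called by edgeR, with 3 and 4 genes at an unadjusted p under 0.05 and 0 and 1 called by DESeq2. The share of all genes at that unadjusted threshold is not given here, so the counts of 3 and 4 have no background beside them. The 10 B cell markers tested ranged from −0.63 (*Pax5*) to 0.30 (*Cd22*), with none called by edgeR or DESeq2 and none at an unadjusted p under 0.05. Of the pan-leukocyte genes 3 of 7 were called higher, from *Ptprcap* (−0.05) to *Cytip* (1.03). The hepatocyte markers summed to 63900 to 66190 CPM in WT and 49590 to 55210 CPM in *Themis*-KO, from *Cyp2e1* (−1.07, called lower) to *Hnf4a* (0.05). No marker of these lists was at 0 in all livers. Some macrophages and dendritic cells can carry CD4. The part of these markers in the results for the members was not tested.

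Other genes of the same cells gave few calls. Of 13 further T cell surface genes, 7 were tested and none was called by edgeR or DESeq2 or had an unadjusted p under 0.05. All 7 log2 fold changes were above 0, with a median of 0.14, beside 51% above 0 and a median of 0.0095 over all genes tested. *Cd7*, an early T and NK cell marker, had the smallest p, with 14, 9 and 7 counts in WT and 16, 18 and 15 in *Themis*-KO (log2 fold change 0.69, edgeR adjusted p = 0.238). *Icos*, a costimulator of activated T cells, had the highest mean CPM of the list and a log2 fold change of 0.13 (edgeR adjusted p = 0.777). *Trac*, the constant region of the receptor's alpha chain, was counted 8, 9 and 12 times in WT and 11, 8 and 10 times in *Themis*-KO (0.0055 on the log2 scale). *Trac* was named after its values were seen, as the receptor chain itself.

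Of 25 genes of proximal receptor signaling, 20 were tested, 1 was called higher and none lower by edgeR. An unadjusted p under 0.05 was reached by 9 genes that were higher and 2 that were lower. The share of all genes at that unadjusted threshold is not given here, so these counts have no background beside them. DESeq2 called 6 higher and 1 lower. Among all genes tested, edgeR called 4.97% higher and DESeq2 8.02%. The gene called was *Cblb*, a ubiquitin ligase that dampens receptor signaling in T cells and is also made elsewhere. It had 178, 168 and 264 counts in WT and 428, 372 and 254 in *Themis*-KO (log2 fold change 0.79, edgeR adjusted p = 0.0407). *Themis*-KO liver 3 had fewer raw counts than WT liver 3 but a smaller library, and in CPM the labels did not overlap. Without WT liver 1 or 2 or *Themis*-KO liver 1 or 2 no gene of this list was called higher, and without WT liver 3 or *Themis*-KO liver 3 there were 4 and 6. Of all genes, 0.0543% to 0.183% were called higher in the first 4 of these fits, 3.24% without WT liver 3 and 15% without *Themis*-KO liver 3. The median of the list was 0.38.

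Of 21 further cytotoxic and NK cell genes, 8 were tested and none was called by edgeR, 1 had an unadjusted p under 0.05, and 1 was called higher by DESeq2. That gene was *Slamf7*, a receptor of NK cells, plasma cells and activated macrophages and T cells, with 16, 28 and 41 counts in WT and 79, 66 and 43 in *Themis*-KO (log2 fold change 1.15, edgeR adjusted p = 0.064). *Il2rb*, the shared chain of the interleukin-2 and interleukin-15 receptors and the gene of the list with the highest mean CPM over all 6 livers, though not over those labelled *Themis*-KO alone, had a log2 fold change of −0.10 (edgeR adjusted p = 0.789). The list had a median of 0.56, and its summed level was 6.697 to 11.64 CPM in WT and 11.79 to 15.68 CPM in *Themis*-KO. Where the labels of *Nkg7* and *Gzma* overlapped, this sum was higher in every liver labelled *Themis*-KO, though narrowly. The closest livers were WT liver 3 (11.64 CPM) and *Themis*-KO liver 2 (11.79 CPM). *Slamf7* alone gave 1.618 and 2.839 CPM in them, a difference wider than the gap between their sums. Whether the list and those 2 members differ was not tested.

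Among 11 inhibitory checkpoint genes 8 were tested, and 1 was called higher, *Cd244a*, a receptor of NK and CD8 T cells. It had 16, 12 and 16 counts in WT and 39, 33 and 24 in *Themis*-KO (log2 fold change 1.11, edgeR adjusted p = 0.0444), and DESeq2 gave an adjusted p of 0.0655. Among 10 homing genes 9 were tested, and 1 was called higher. Beside these single calls, edgeR called 4.97% of all genes tested higher, and 1 call in so short a list says little about the list. No checkpoint gene was called higher when any liver but *Themis*-KO liver 3 was left out, and 2 were without that liver. No homing gene was called higher without WT liver 1 or 2 or *Themis*-KO liver 1 or 2, and 4 were without *Themis*-KO liver 3, a fit in which 15% of all genes were called higher. The medians of these lists were 0.32 and 0.53. Of 18 T cell subset genes 9 were tested and none was called by edgeR, while 2 higher and 1 lower gene had an unadjusted p under 0.05, and DESeq2 called 1 higher and 1 lower. *Zbtb7b*, a gene of that list which directs the CD4 fate in the thymus, was at 89.6 ± 8.84 CPM in WT and 82.9 ± 7.04 CPM in *Themis*-KO (SD, n = 3 each). This was far above *Cd4* (1.63 CPM) and *Cd3e* (0.807 CPM) in WT, and which cells made the *Zbtb7b* RNA was not tested.

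**Figure D5:**
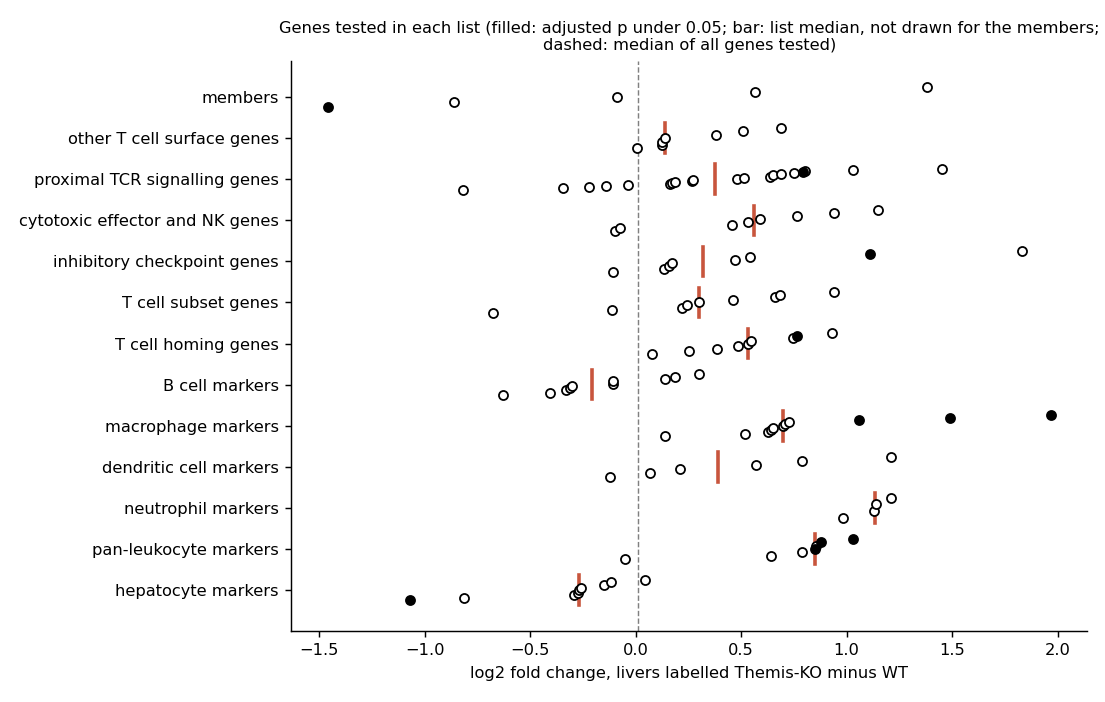
Log2 fold change of every gene tested in each list, livers labelled *Themis*-KO minus WT (filled points, adjusted p under 0.05 in edgeR; red bars, list medians; dashed line, median of all genes tested). The members spread from −1.46 (*Cd4*) to 1.38 (*Cd8a*). The medians of the other lists lie above the dashed line, except those of the B cell (−0.21) and hepatocyte (−0.27) lists. The highest are those of the neutrophil (1.13), pan-leukocyte (0.85) and macrophage (0.70) lists.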

How the data were processed

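Poly(A) RNA libraries of 3 WT and 3 *Themis*-KO livers were read from 1 table. The authors trimmed, mapped and quantified the reads, for which the submitters' processing notes name cutadapt 2.3, STAR 2.7.8a, RSEM 1.3.3 and GRCm38, and deposited 1 estimated count for each gene in each liver, not normalized. The deposited values are whole numbers, although RSEM gives fractions and divides reads that fit several genes. The annotation release was not given in the sources used here. Of 25403 gene identifiers, 25353 matched GENCODE vM21, which gave coordinates and transcript lengths.

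The software was edgeR 4.0.16 and limma 3.58.1 in R 4.3.3. The filterByExpr filter kept 14496 genes, libraries were scaled by TMM, and labels were compared over all 6 livers with glmQLFit and glmQLFTest without covariates. Benjamini-Hochberg adjustment ran over all genes tested, with a threshold of 0.05. The tests were run on simulated data first. For ratios, 0.5 was added to each count, and an exact two-sided permutation test compared the labels in Python 3.11.15. For correlations a prior count of 2 was used. Wilson intervals were computed with scipy 1.17.1 and figures drawn with matplotlib 3.10.9.

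The members and the gene lists were chosen with earlier results of these data known. Named were the members, *Themis*, and from each T cell, NK cell or lymphocyte list the genes with an adjusted p under 0.05, or otherwise the gene with the smallest p and that with the highest level. From each list of other cells, the genes with the largest and the smallest log2 fold change were named. Some genes that this rule covers are not reported here, and *Ly6g* and *Tf* were not analysed here. Alternatives were RLE, upper quartile and library-total scaling, no filter, DESeq2 1.42.0, a minimum of 10 counts in every liver, the replicate number as a block, the mitochondrial split as a covariate, and each liver left out in turn. Livers of a group differed by more than sampling noise (chi-square per degree of freedom of at least 9.117). The labels number the livers without stating that each came from its own mouse, so p-values measure the spread between these samples.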

Additional observations from a re-analysis of the deposited data

How the results depend on the processing

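The study's text speaks of pairs of livers, but no source used here says what makes a pair, and same-numbered livers did not deviate together (mean correlation −0.13, against 0.066 for different numbers). With the replicate number as a block, the *Cd4* log2 fold change was −1.43 (edgeR adjusted p = 0.096), 0 members were called lower, and 0 proximal signaling, checkpoint and homing genes were called higher, while 0.31% of all genes were called lower and 0.117% higher. The mitochondrial covariate, a fit that compares the labels through WT liver 3 alone, gave a *Nkg7* log2 fold change of −0.45 against 0.17. Counts of calls are not given for that fit. Leaving out 1 liver at a time gave 0 to 2 members called lower (2 without *Themis*-KO liver 3, 0 without any other) and log2 fold changes of −1.69 to −1.29 for *Cd4*, −1.13 to −0.71 for *Zap70*, −0.27 to 0.21 for *Cd3e*, −0.21 to 0.75 for *Cd8b1*, −0.0086 to 0.88 for *Lck*, −0.70 to 0.67 for *Nkg7*, −0.0892 to 0.457 for *Gzma*, 0.56 to 1.32 for *Cd3d*, −1.19 to −0.0081 for the *Cd8b1* to *Cd8a* ratio, −0.47 to 0.08 for the summed members and −0.41 to 0.44 for the *Nkg7* to *Cd3e* ratio. The same fits called 0 to 6 proximal signaling genes higher and 0 to 2 lower, 0 to 1 cytotoxic genes higher, 0 to 2 checkpoint genes higher, 0 to 4 homing genes higher and 0 to 1 subset genes in each direction. Scaling by library totals alone turned *Cd3e* to 0.0401 and called 6 proximal signaling, 1 cytotoxic and 2 homing genes higher, and it moved the split over all genes from 4.97% higher and 4.14% lower to 10% and 2.67%. With no filter there were 5 proximal signaling, 1 cytotoxic, 1 subset and 2 homing genes higher, and 1 proximal signaling and 1 subset gene lower. With at least 10 counts in every liver 2 proximal signaling genes were called higher. DESeq2 called 6 proximal signaling, 1 cytotoxic, 0 checkpoint, 1 subset and 2 homing genes higher, and 1 proximal signaling and 1 subset gene lower. The cause of these shifts was not tested. The summed members turned from −0.22 to 0.0251 when each gene weighed the same. The other alternatives left the counts of calls within 1.5 times the reported ones. At 13 to 178 counts per member over the 3 WT livers, depth limits what can be seen for *Cd3d*, *Cd3g*, *Cd8b1*, *Nkg7* and *Gzma*.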
